A study of Homo sapiens with 4 samples.

Results

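The BCL2 family genes that regulate apoptosis were followed in LN229 cells after knockdown of *SOX2*. Members were the 10 genes *BCL2*, *BCL2L1*, *BCL2A1*, *MCL1*, *BAX*, *BAK1*, *BBC3*, *PMAIP1*, *BCL2L11* and *BID*, and each probe was taken whose gene symbol on the array equals one of these names. They were read by 15 of the 33096 gene probes on the array, which carry 20481 gene symbols. LN229 is an established human glioblastoma line. Total RNA came from LN229 cells transfected with siRNA against *SOX2* (2 arrays, SOX2 knockdown 1 and 2) or with a non-targeting control siRNA (2 arrays, mock 1 and 2), so the mock cells went through transfection as well. The methods describe the replicates as separate transfections and list a pair of *SOX2* siRNAs without saying which was used for the arrays. Each RNA was hybridised to a 1-colour chemiluminescent array, the Applied Biosystems Human Genome Survey array. The comparison asks which of these genes had another RNA level when *SOX2* was knocked down, and whether pro-survival and pro-death members differed in direction.

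The BCL2 family decides whether the outer mitochondrial membrane is permeabilised, the step that releases cytochrome c and commits a cell to apoptosis. The effectors BAX and BAK form pores in that membrane, the pro-survival proteins bind and hold them back, and the BH3-only proteins either occupy the groove of the pro-survival proteins or activate the effectors directly. Gliomas, like many solid tumours, often rely on more than 1 pro-survival protein at a time.

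Values below are scaled signals, in which 1 is the 75th percentile of the gene probes on the same array. Changes are log2 of SOX2 knockdown over mock with the standard error (SE) of the fit, and folds are ratios of the group means, each ± SD with n = 2. A signal is called dim where its signal-to-noise ratio (S/N) is at or under 3. Probes whose S/N exceeded 3 on the 2 arrays of either group were tested, 21256 in number. All 15 member probes were among them, and for 14 of them no array was dim. The share of all gene probes with S/N over 3 ran from 63.5% to 68.9% per array, and the median difference between the 2 arrays of a group was 0.22 for mock and 0.17 for SOX2 knockdown on the log2 scale. *SOX2* itself had scaled signals of 0.467 and 0.701 in mock and 0.209 and 0.149 in SOX2 knockdown, a log2 difference of -1.69 (SE 0.28, limma adjusted p = 0.117). Because 1 label field names SW620, a colon cancer line, markers of both lines were read. Of 11 probes for 10 colon epithelial genes 1 was dim on no array, a probe of *VIL1*, and *CDH1*, *KRT20* and *CDH17* were dim on every array. Of 9 probes for 8 genes of glioma lines 7 were dim on no array, *VIM*, *CD44* and *S100B* included. *FN1* was not among the 7.

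None of the 15 member probes had a limma p under 0.05 after Benjamini-Hochberg adjustment, and neither did any of the 21256 probes (0.00%). At an adjusted p under 0.1 there were 0 members, against 1.13% of all probes (241). With a variance trend in the fit there were 2 members, *BCL2A1* and *PMAIP1*, and 1016 of the 21256 probes. At an unadjusted p under 0.05 there were 3 member probes, 1 higher and 2 lower, against 17.1% of all probes, 7.90% higher and 9.16% lower. That count fell when 1 SOX2 knockdown array was left out, as did the count over all probes. By the methods' cutoff of 2-fold, applied here to single probes, 1 member probe was lower and 0 were higher, against 2.61% of all probes, 1.04% lower and 1.57% higher. That probe, of *BCL2*, is dim on both knockdown arrays and entered the test through mock, the group in which it is higher. Its place in the counts of this paragraph, at 1.5-fold and without overlap as well, thus lends them no support. At 1.5-fold there were 3, 1 higher and 2 lower, against 10.5% of all probes, 5.32% higher and 5.19% lower. The methods averaged probes by gene ID before the 2-fold cutoff. With such averaging 0 members passed 2-fold, and 438 of all 18378 averaged values did. In 8 of the 15 probes the groups did not overlap, 4 higher and 4 lower, while 47.0% of all probes were without overlap (21.2% higher, 25.8% lower). The shares of members without overlap and with an unadjusted p under 0.05 lay near those over the array. In bulk RNA, fewer cells that express a gene and less RNA per cell cannot be told apart.

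**Figure D1:**
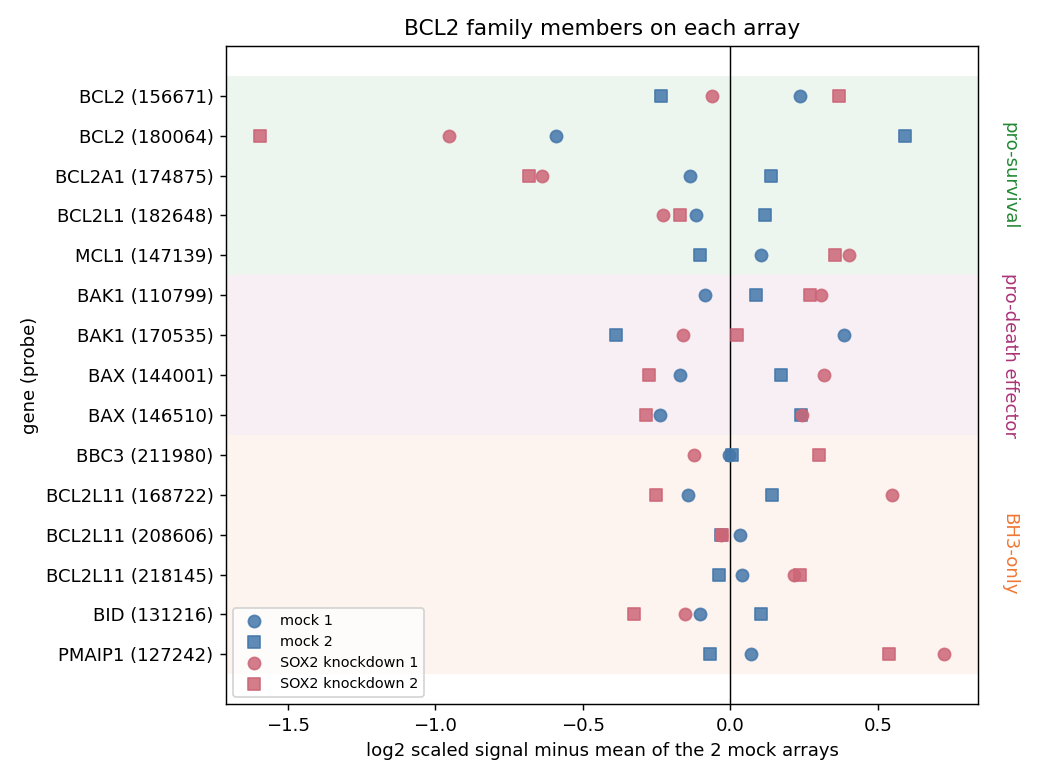
Each row is 1 probe (gene symbol and probe number), the x axis is its log2 scaled signal minus the mean of the 2 mock arrays, circles are replicate 1 and squares replicate 2, blue is mock and red is SOX2 knockdown. The knockdown arrays sit to the right of both mock arrays for PMAIP1 and MCL1 and to the left for BCL2A1, while BAX spreads by array and not by group.

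Among the pro-survival members, *BCL2A1* was lower and *MCL1* was higher in both SOX2 knockdown arrays, and *BCL2* gave a different answer on each of its 2 probes. The 5 pro-survival probes had a median log2 change of -0.20, between -1.27 and 0.38, beside a median of -0.0012 over all probes tested. It was -0.08 without mock 2 and -0.02 where the dim *BCL2* probe was left out by asking for S/N over 3 on all arrays. The groups were without overlap in 4 of these 5 probes, 3 lower and 1 higher, against 25.8% and 21.2% of all probes. The dim *BCL2* probe, kept through mock, is among the 3 lower, so it lends this count no support.

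*BCL2A1* (hCG201186.3), which encodes BFL-1, a short-lived pro-survival protein known as a target of NF-kappaB, had scaled signals of 7.13 and 8.61 in mock and 5.03 and 4.88 in SOX2 knockdown. The knockdown values were close to each other and below the mock values. The group means were 7.87 ± 1.05 and 4.96 ± 0.107, which is 1.59-fold lower, with a log2 change of -0.66 (SE 0.15, 95% interval -1.07 to -0.25). The limma adjusted p was 0.164, and 3.83% of all probes tested were further down.

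*MCL1* (hCG1998384), a pro-survival protein with a short half-life that restrains BAK, had scaled signals of 11.3 and 9.80 in mock and 13.9 and 13.5 in SOX2 knockdown. The groups did not overlap, and *MCL1* was the pro-survival gene in which both knockdown arrays were higher than both mock arrays. The means were 10.5 ± 1.06 and 13.7 ± 0.312, a ratio of 1.30 and a log2 change of 0.38 (SE 0.14, limma adjusted p = 0.293), and 11.9% of all probes tested were further up.

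*BCL2* (hCG34092.3), the founding member, which holds effectors and BH3-only proteins at the mitochondrial and endoplasmic reticulum membranes, has 2 probes here that share the gene and are not replicates of each other. Probe 156671 had scaled signals of 0.502 and 0.362 in mock and 0.408 and 0.550 in SOX2 knockdown. The annotation of the array lists no transcript for this *BCL2* probe. These groups overlapped, with a log2 change of 0.15 (SE 0.25, 95% interval -0.51 to 0.81, limma adjusted p = 0.857). Probe 180064, which the annotation ties to both RefSeq transcripts of the gene, had 0.0974 and 0.221 in mock and 0.0757 and 0.0487 in SOX2 knockdown. Both knockdown values were below both mock values, and both were dim, with S/N of 2.17 and 2.20 against 5.22 and 5.95 in mock, so only a bound can be given. Each dim array was set to the highest of its own signal, the faintest signal on it that was not dim, and the signal at which its S/N would be 3. By that bound this *BCL2* probe was at least 1.76-fold lower with the mean of both mock arrays, but the bound rests on mock 2: in a check added after seeing the data it was 1.17-fold with mock 1 alone and 2.65-fold with mock 2 alone. The means as measured were 0.159 ± 0.0874 and 0.0622 ± 0.0191, with a fitted log2 change of -1.27 (SE 0.47, limma adjusted p = 0.285). The measured means differ by more than 2-fold and the bound does not, so a 2-fold difference is not established for this probe. Its log2 change was -0.68 without mock 2 and -0.58 with normexp background correction. The study named *BCL2* among genes that changed on these same arrays and also had SOX2 binding regions by ChIP-seq. Its array value here is thus not independent evidence. The methods averaged probes by gene ID first, and with such averaging *BCL2* had a log2 change of -0.13 here (limma adjusted p = 0.782), short of 2-fold.

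*BCL2L1* (hCG38811.3), whose long product BCL-XL is a broad pro-survival protein, had scaled signals of 0.568 and 0.667 in mock and 0.525 and 0.547 in SOX2 knockdown. The knockdown arrays were both just below the mock arrays, by a log2 change of -0.20 (SE 0.15, 95% interval -0.59 to 0.19, limma adjusted p = 0.600). The annotation ties its probe to the long and to the short, pro-death, splice form alike.

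**Figure D2:**
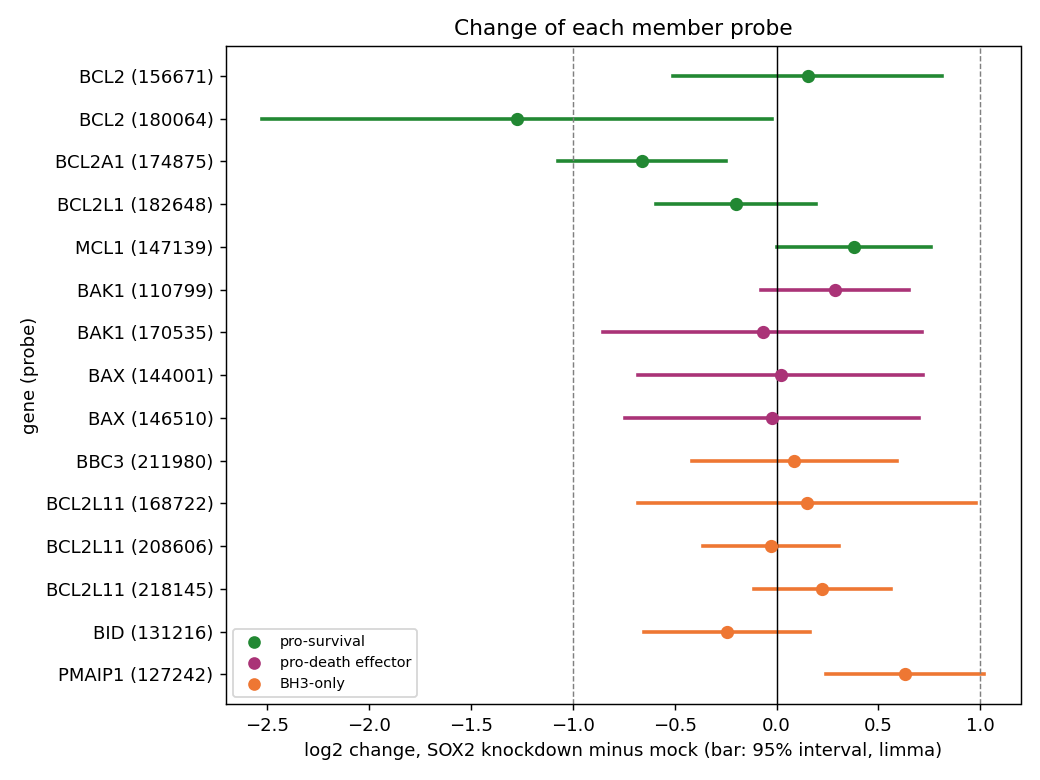
Each row is 1 member probe, the point is the log2 change of SOX2 knockdown over mock, the bar its 95% interval from limma, the dashed lines mark 2-fold, and colour gives the role. The intervals of BCL2A1 (-1.07 to -0.25), PMAIP1 (0.24 to 1.02) and the dim BCL2 probe (-2.52 to -0.02) leave out 0, those of the other probes contain it.

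The 10 pro-death probes, for 6 genes, had a median log2 change of 0.05, between -0.24 and 0.63. In 3 of them the groups were without overlap and higher and in 1 lower, against 21.2% and 25.8% of all probes, and in 6 they overlapped. *PMAIP1* was the pro-death gene with the largest difference.

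*PMAIP1* (hCG1776475.1) encodes NOXA, a BH3-only protein that binds MCL1 and BFL-1 and is known as a target of p53 and of the integrated stress response. Its scaled signals were 3.40 and 3.08 in mock and 5.35 and 4.70 in SOX2 knockdown. Both knockdown arrays were above both mock arrays by more than the arrays of either group differed. The means were 3.24 ± 0.225 and 5.02 ± 0.458, a ratio of 1.55 and a log2 change of 0.63 (SE 0.15, 95% interval 0.24 to 1.02). The limma adjusted p was 0.163, and 4.86% of all probes tested were further up.

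The other BH3-only genes showed smaller differences. *BBC3* (hCG20374.3), which encodes PUMA, an activator and p53 target, had scaled signals of 0.416 and 0.419 in mock and 0.383 and 0.513 in SOX2 knockdown. Its groups overlapped, with a log2 change of 0.09 (SE 0.19, 95% interval -0.41 to 0.59). *BID* (hCG21529.3), which caspase-8 cleaves to its active form, had 1.05 and 1.21 in mock and 1.01 and 0.899 in SOX2 knockdown. Both knockdown values of *BID* were below the mock values, with a log2 change of -0.24 (SE 0.15, 95% interval -0.65 to 0.17, limma adjusted p = 0.525).

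*BCL2L11* (hCG15901.3), which encodes BIM, a BH3-only protein with several splice forms, has 3 probes that share the gene. Probe 208606 was level on all arrays, at 0.383 and 0.366 in mock and 0.367 and 0.367 in SOX2 knockdown, with a log2 change of -0.03 (95% interval -0.36 to 0.30). Probe 218145, which the annotation ties to 1 transcript variant only, had 0.0644 and 0.0610 in mock and 0.0727 and 0.0738 in SOX2 knockdown. Those groups did not overlap, with a log2 change of 0.23 (SE 0.13, limma adjusted p = 0.465). Probe 168722 was high on knockdown 1 alone, at 0.0561 and 0.0683 in mock and 0.0905 and 0.0520 in SOX2 knockdown, with a log2 change of 0.15 (95% interval -0.68 to 0.98).

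The effectors were level between the groups on 3 of their 4 probes, with a median log2 change of -0.00078 over the 4. *BAX* (hCG1811614.1), which moves from the cytosol to the mitochondria when activated, had scaled signals of 3.08 and 3.91 in mock and 4.32 and 2.86 in SOX2 knockdown on probe 144001. On probe 146510 *BAX* had 1.497 and 2.09 in mock and 2.09 and 1.45 in SOX2 knockdown. Both probes were high on mock 2 and knockdown 1 and low on mock 1 and knockdown 2, and their changes were 0.02 (95% interval -0.68 to 0.72) and -0.02 (-0.74 to 0.70) on the log2 scale. *BAK1* (hCG2001793), which encodes BAK, the effector resident in the outer membrane, had 0.772 and 0.869 in mock and 1.01 and 0.987 in SOX2 knockdown on probe 110799. These did not overlap, with a log2 change of 0.29 (SE 0.14, 95% interval -0.08 to 0.65, limma adjusted p = 0.392). Probe 170535 of *BAK1* had 1.62 and 0.946 in mock and 1.11 and 1.26 in SOX2 knockdown, so that both knockdown values lay between the mock values, with a log2 change of -0.07 (95% interval -0.85 to 0.72).

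**Figure D3:**
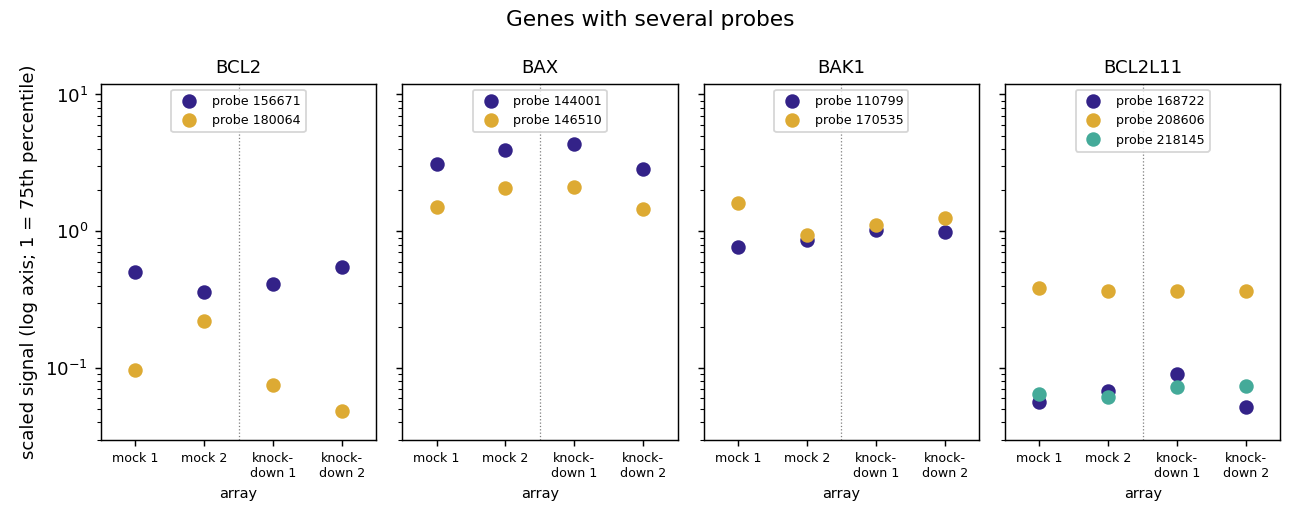
Scaled signal (log axis, 1 is the 75th percentile of the array) on the 4 arrays for the members with more than 1 probe, 1 panel per gene and 1 colour per probe, mock left and SOX2 knockdown right of the dotted line. Levels of different probes cannot be set against each other, but their course over the arrays can: the BAX probes run together, while BCL2 probe 180064 is lower in knockdown (0.0757 and 0.0487) and BCL2 probe 156671 is not.

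Set side by side per array, the median log2 difference from the mock mean over the 5 pro-survival probes was -0.12 and 0.12 in mock and -0.23 and -0.17 in SOX2 knockdown. Over the 10 pro-death probes it was -0.05 and 0.05 in mock and 0.23 and -0.0019 in SOX2 knockdown. The pro-death medians of the knockdown arrays differed from each other by more than the groups did. Without SOX2 knockdown 2 the pro-death median was 0.23, without mock 2 it was 0.19, and without SOX2 knockdown 1 it was -0.0019. The pro-survival median was -0.02 with S/N over 3 on all arrays, which leaves out the dim *BCL2* probe that was kept through mock. Over all 5 probes the pro-survival median ran from -0.32 without mock 1 to -0.08 without mock 2. Both medians thus depended on single arrays, and the pro-death median was -0.03 with normexp background correction.

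Ratios between members on the same array do not depend on the scaling of the array. Relative to the mean of the mock arrays, the log2 ratio of *PMAIP1* to *BCL2A1* was 0.21 and -0.21 in mock and 1.36 and 1.22 in SOX2 knockdown, a shift of 1.29 or 2.44-fold. The ratio of *MCL1* to *BCL2A1* shifted by 1.04 on the log2 scale, or 2.05-fold. The ratio of *PMAIP1* to *MCL1* shifted by 0.25, with -0.03 and 0.03 in mock and 0.32 and 0.18 in SOX2 knockdown. These genes were picked for their differences, so the ratios are a description and were not tested.

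**Figure D4:**
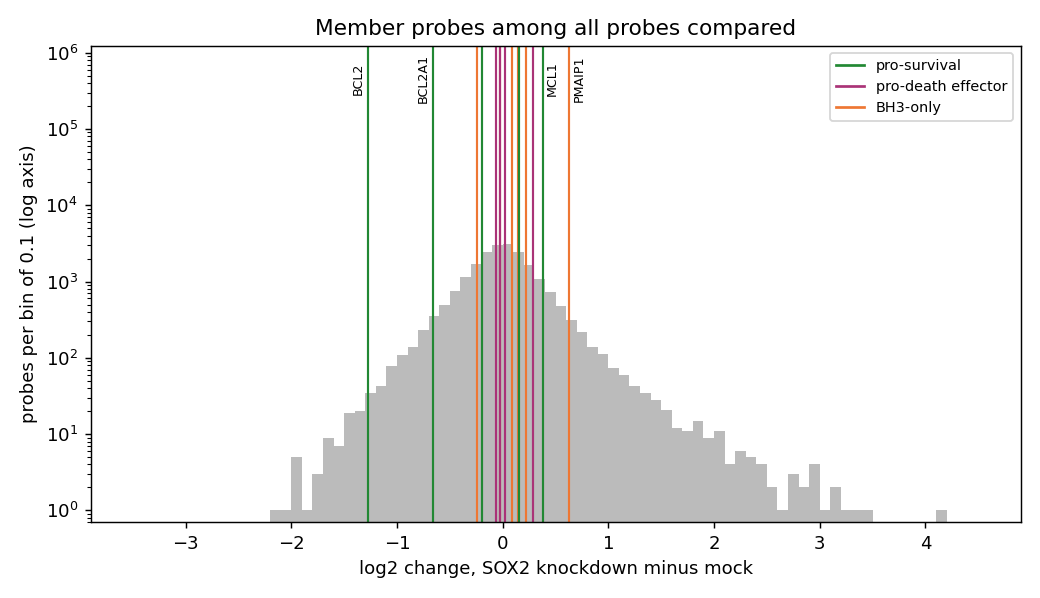
Grey bars count all 21256 probes by log2 change of SOX2 knockdown over mock (x axis, bins of 0.1; log y axis), and coloured lines mark the 15 member probes by role. Most members lie in the centre of the distribution, PMAIP1 lies where 4.86% of probes are further up and BCL2A1 where 3.83% are further down.

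The promoters of *PMAIP1* and *BCL2A1*, the 2 members tested on bright probes that differed most in opposite directions, are shown to compare which stress response motifs they hold. Each is the 250 bases before the start of the gene (RefSeq, GRCh38.p14), read 5′ to 3′ on the strand of the gene. *PMAIP1* is at chr18:59899746-59899995 on the plus strand, with capitals at its match to TGACG, the first letters of the cAMP and ATF response element, here on the other strand and 51 bases before the start. *BCL2A1* is at chr15:79971197-79971446 on the minus strand, with capitals at its match to TGATGNAA, the C/EBP-ATF response element, 56 bases before the start.
PMAIP1: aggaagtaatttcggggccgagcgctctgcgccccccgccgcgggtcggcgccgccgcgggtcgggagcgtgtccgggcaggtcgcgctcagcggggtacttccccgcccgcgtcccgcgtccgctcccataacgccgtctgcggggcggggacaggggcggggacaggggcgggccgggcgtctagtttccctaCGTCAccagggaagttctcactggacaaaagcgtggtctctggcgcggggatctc
BCL2A1: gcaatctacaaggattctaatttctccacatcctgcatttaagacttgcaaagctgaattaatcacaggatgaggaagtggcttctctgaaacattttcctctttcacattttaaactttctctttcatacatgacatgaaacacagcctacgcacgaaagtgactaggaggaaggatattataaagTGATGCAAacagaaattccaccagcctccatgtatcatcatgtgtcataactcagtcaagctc

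Of the 10 member genes, 9 were matched in the RefSeq promoter table, and *MCL1* was not. Motifs were searched on both strands. TGACG was in the windows of *BAX*, *BCL2*, *BCL2L1* and *PMAIP1*, 4 of 9, and in 21.2% of all 35116 windows. The full element TGACGTCA, which contains TGACG, was in 0 of 9 and in 1.65% of all windows. TGATGNAA was in 1 of 9, *BCL2A1*, and in 3.14% of all. Of the SOX core motifs, AACAAT was in 0 of 9 (8.98% of all windows) and AACAAAG in 1 of 9, *BID* (4.50% of all). The NF-kappaB motif (GGG, any 2 letters, then TTTCC) was in 0 of 9 (1.73% of all) and the E-box CACGTG in 3 of 9, *BAX*, *BBC3* and *BID* (6.34% of all). A match is a description of letters in this window and not evidence of a bound factor.

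Of 14 further BCL2 family genes that were listed, 13 were found on the array, and 12 of their 16 probes entered the test. Their median log2 change was 0.12, with 7 of 12 probes without overlap, 5 higher and 2 lower (47.0% of all probes). Of the 12, 5 had an unadjusted p under 0.05, 4 of them higher (17.1% of all probes). Both tested *BNIP3* probes are among these 4, as is a probe of *HRK* that was dim on mock 2 (S/N 2.70). That *HRK* probe entered the test through SOX2 knockdown, the group in which it is higher. Its place in both counts thus lends them no support. *BNIP3*, a mitophagy receptor with a BH3-like stretch that is induced in hypoxia, had scaled signals of 5.43 and 6.29 in mock and 12.4 and 11.0 in SOX2 knockdown on its brightest probe. The knockdown arrays were higher by a ratio of 1.998 (log2 change with SE 0.15 and 95% interval 0.59 to 1.41, limma adjusted p = 0.107), and its probe 127212 had a ratio of 2.09 (limma adjusted p = 0.0945). The study named *BNIP3* too among the genes changed on these arrays that had SOX2 binding regions, so its array value is not independent evidence.

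Genes for the turnover of MCL1 and its relatives had a median log2 change of 0.0059 over 7 probes of ubiquitin ligases and a kinase, with 1 of 7 at an unadjusted p under 0.05 (17.1% of all probes). The deubiquitinase of that list, *USP9X*, was dim on every array and was not tested. The outer membrane list held mainly VDAC channels and proteins released once that membrane is permeabilised. It had a median log2 change of -0.03 over 13 probes, with 1 of 13 at that p. No gene of either list met the rule for naming, which asks for over 1.5-fold, no dim array and no overlap.

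Transcription factors known to control BCL2 family genes had a median log2 change of 0.08 over 17 probes, 6 higher and 2 lower without overlap (47.0% of all probes in either direction), with 4 of 17 at an unadjusted p under 0.05 (17.1% of all probes). *DDIT3*, which encodes CHOP, the stress factor that acts on BCL2 and BIM expression, had scaled signals of 3.26 and 4.27 in mock and 11.9 and 11.6 in SOX2 knockdown. It was higher by a ratio of 3.13 with a log2 change of 1.66 (SE 0.18, limma adjusted p = 0.0833). *ATF3*, a stress factor that binds ATF sites, had a ratio of 2.56 (limma adjusted p = 0.0964) and *MYC* a ratio of 1.64 (limma adjusted p = 0.144). Both knockdown arrays were above both mock arrays in each of the 3 genes.

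Other known targets of p53 had a median log2 change of 0.27 over 19 probes, with 11 higher and 2 lower without overlap (47.0% of all probes in either direction) and 8 of 19 at an unadjusted p under 0.05 (17.1% of all probes). *SESN2*, a sestrin that restrains mTORC1, had scaled signals of 3.96 and 5.75 in mock and 19.4 and 22.2 in SOX2 knockdown, a ratio of 4.28 (log2 change 2.12, SE 0.23, limma adjusted p = 0.0833). *GADD45A*, a growth arrest gene, had a ratio of 2.51, *AEN*, an apoptosis nuclease, a ratio of 1.68, and *FAS*, a death receptor, a ratio of 1.63. Of these 4 genes *SESN2* and *GADD45A* are also known as targets of ATF4, a stress factor upstream of CHOP. The 2 probes of *ATF4* had ratios of 1.10 and 1.32 (limma adjusted p = 0.727 and 0.466). Which factor acted on these genes was not tested. Among the p53 targets, *CCNG1* went the other way and was lower without overlap, with a ratio of 0.619 (limma adjusted p = 0.166). *CDKN1A* had a ratio of 1.08 with overlapping groups, and the *MDM2* probe was dim on every array and not tested. Of the members best known as p53 targets, *BBC3* had a log2 change of 0.09, *BAX* of 0.02 and -0.02 on its 2 probes, and *PMAIP1* of 0.63 in the same fit.

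**Figure D5:**
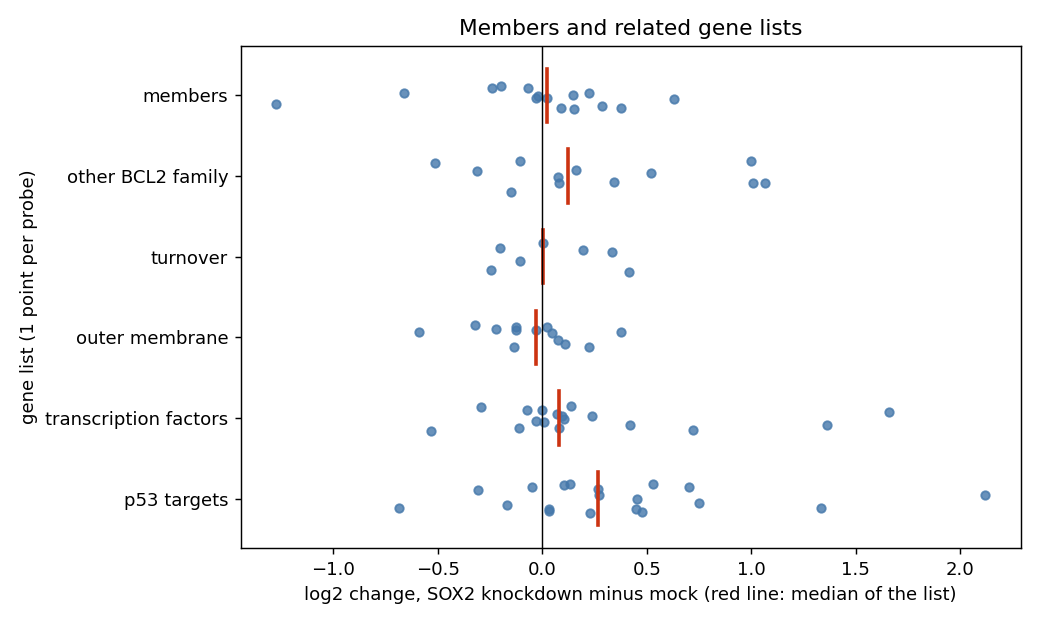
Each point is 1 tested probe of a list (rows), the x axis its log2 change of SOX2 knockdown over mock, and the red line the median of the list. The members scatter around 0 with a median of 0.02, and the p53 targets have a median of 0.27 with SESN2 at 2.12.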

How the data were processed

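The scanner files deposited for the 4 arrays hold an intensity per probe on a linear scale, the normalized signal that the authors' scanner software made. S/N, per the file headers a column of its own, was read as a score of signal over error. The value table that the authors deposited for the series holds a linear ratio per probe and array and served as an alternative. The meaning of the flags is not given in the sources used here.

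Control features were left out, and so were 210 probes that any array flagged at 5000 or higher, which left 32886. Signals were divided by their array's 75th percentile over probes, values were floored at 0.01, and log2 was taken. Probes whose S/N exceeded 3 on the 2 arrays of either group (21256) were tested 1 by 1 with limma 3.58.1 (lmFit and eBayes, two-sided, R 4.3.3), with Benjamini-Hochberg adjustment over all of them and a threshold of 0.05. The methods' cutoff of 2-fold was applied to ratios of linear group means of single probes, whereas the methods averaged probes by gene ID first. The 95% intervals are from limma and are not adjusted for the number of probes. The code of the fit was also run on simulated arrays, drawn independently and with planted changes, which is no evidence on the differences reported here. Summaries used Python 3.11.15 with pandas 2.3.3.

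Groups came from the labels. Replicate numbers were not used as pairs, since they share only a number. Members and lists were chosen with earlier results of these data known. Named were all members, *SOX2*, and up to 4 genes of each further list over 1.5-fold with S/N over 3 on all arrays and no overlap, each by its brightest probe. The p53 targets *CCNG1*, *CDKN1A* and *MDM2*, and also *HRK* and *ATF4*, were named outside this rule. Older symbols on the array were matched through the RefSeq gene table. Scaling, background, floor, filters, averaging by gene ID, variance model, pairing and leaving out each array were varied. The number of arrays, 2 per group, limits the precision.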

Additional observations from a re-analysis of the deposited data

How the results depend on the processing

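There were 2 arrays per group and dim probes were read near their error. Of the 15 member probe results 8 kept their direction under all alternatives run. These include *BCL2A1* (-0.80 to -0.52), *PMAIP1* (0.54 to 0.72) and *MCL1* (0.28 to 0.48), all log2 changes.

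The count of members past 2-fold, 1, was 3 at a 1.5-fold cutoff and 0 at 3-fold, with normexp background correction, with S/N over 3 on all arrays and with probes averaged by gene ID. It ran from 0 to 1 when single arrays were left out, being 0 without mock 2. The count of members past an adjusted p of 0.05, 0, became 1 with median scaling, no further scaling and the series value table, each time *BCL2* probe 180064. In these fits limma gave every probe the same variance (an infinite prior), and 826, 776 and 758 of all probes passed, against 0. With a variance trend 287 of all probes and 0 members passed, with S/N over 3 on all arrays 5 and 0. At an adjusted p of 0.1, 0 members became 1 in those 3 scalings (the same *BCL2* probe) and 2 with a variance trend (*BCL2A1* and *PMAIP1*). Members at an unadjusted p under 0.05, 3, ran from 0 to 4 with single arrays left out and reached 5 with a floor of 0.05. That *BCL2* probe had a log2 change of -0.58 with normexp, and from -1.86 to -0.68 with single arrays left out.

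The pro-survival median, -0.20, was -0.023 with S/N over 3 on all arrays and -0.32 to -0.08 with single arrays left out. The pro-death median, 0.05, was -0.00188 to 0.23 with single arrays left out, 0.19 without mock 2 and 0.23 without SOX2 knockdown 2, and -0.034 with normexp, which turns its sign.

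Small changes turned sign. *BAX* probe 144001 was -0.013 with median scaling, -0.0065 with no further scaling, -0.0028 with the series value table, -0.12 with normexp and -0.28 to 0.32 with single arrays left out. Averaged by gene ID, *BCL2* was -0.13, *BAX* 0.0083, *BAK1* 0.069 and *BCL2L11* 0.036. With single arrays left out, *BCL2* probe 156671 ran from -0.082 to 0.39, *BAX* probe 146510 from -0.29 to 0.24, *BAK1* probe 170535 from -0.45 to 0.32, *BBC3* from -0.12 to 0.30, *BCL2L11* probe 208606 from -0.061 to 0.0029 and probe 168722 from -0.25 to 0.55. Over all probes, the count past 2-fold was 554, and 235 with normexp, 1373 without the S/N filter, 302 with S/N over 3 on all arrays and 363 with a floor of 0.05. Of those past 2-fold 60.3% were higher, and 77.9% with normexp. The cause of these shifts was not tested.

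With a replicate block, 0 members passed an adjusted p of 0.05 and 3 an unadjusted p of 0.05, while 1905 of all probes did, against 3626. Deviations of mock 1 and SOX2 knockdown 1 correlated at -0.48 over probes. With the crossed replicate block, chosen after seeing the data, 5518 of all probes and 4 members passed an unadjusted p of 0.05. In the same fit 2105 of all probes and 2 members passed an adjusted p of 0.1.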
